A study of Arabidopsis thaliana with 18 samples.

Results

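The clade A members of the AT-HOOK MOTIF NUCLEAR LOCALIZED (AHL) family that are known for growth and development were followed by poly(A) RNA sequencing of whole Arabidopsis thaliana seedlings. The set holds 10 genes of the 33602 loci in the count tables, picked by locus from what is known of the family: AHL15, AHL16, AHL18, AHL19, AHL20, AHL21, AHL22, AHL25, AHL27 and AHL29. No rule on their values was used, but earlier results of these data were known when they were chosen. In 9 of them reads were numerous enough for testing. AHL16 was not tested. Seedlings came from 3 genotypes: ahl10-1 and rrp6l1-2, which are T-DNA insertion mutants, and the wild type (WT, Col-0). At 7 days of age seedlings of each genotype were transferred to agar plates at a water potential of -0.7 MPa, set by polyethylene glycol (PEG) 8000 (stress), or to plates at -0.25 MPa (control), under continuous light and without sugar. Harvest followed 96 h later, at 11 days, so stressed and control seedlings were of equal age. The 6 groups have 3 libraries each, described in the design as separate experiments, 18 in all, and each library holds 57996104 to 68555138 reads on genes. Each mutant gene is represented by a single allele.

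AHL proteins are chromatin proteins that carry an AT-hook, a short loop that enters the minor groove of AT-rich DNA, and a PPC domain (also called DUF296) through which they bind each other and other nuclear proteins such as TCP transcription factors. Clade A members have the simplest form, with a single AT-hook and an intronless coding region. In seedlings, AHL27 (ESCAROLA) and AHL29 (SOB3) restrain hypocotyl elongation in the light, acting partly against PIF transcription factors and auxin genes. AHL22 represses the flowering gene FT together with histone deacetylases, AHL25 takes part in gibberellin feedback on GA3OX1, and AHL15 (REJUVENATOR) delays ageing of axillary meristems. AHL19 and AHL20 are known from defence, AHL21 (GIANT KILLER) from floral organ patterning, AHL16 (TEK) from the anther, and AHL18 from root system architecture.

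The AT-hook is the shared feature that places these genes in the family, and its coding sequence is shown for each of the 10 genes from the TAIR10.1 reference of NCBI, read 5′ to 3′ on the coding strand. Capitals mark the 12 bases that encode the arginine-glycine-arginine-proline core, with 9 bases before and 12 after it.
AHL15: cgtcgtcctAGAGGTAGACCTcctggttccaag
AHL16: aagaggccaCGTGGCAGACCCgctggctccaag
AHL18: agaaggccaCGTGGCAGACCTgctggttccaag
AHL19: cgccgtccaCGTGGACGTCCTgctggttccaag
AHL20: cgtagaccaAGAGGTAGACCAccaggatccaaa
AHL21: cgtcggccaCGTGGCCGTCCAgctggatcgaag
AHL22: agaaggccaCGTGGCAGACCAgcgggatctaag
AHL25: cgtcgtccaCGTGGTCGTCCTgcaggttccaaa
AHL27: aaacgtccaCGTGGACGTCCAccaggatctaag
AHL29: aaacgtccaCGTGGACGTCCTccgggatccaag

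The core occurred once in the coding region of every gene, at codon 56 in AHL16, the earliest, and codon 92 in AHL22, the latest. AHL19 and AHL29 had identical core bases, and the other 8 genes each had a core spelled differently from every other. Each of the 10 genes has a coding region in 1 segment of 774 to 954 bases. AHL15 alone of the 10 has an intron, which lies in its untranslated leader. Over the whole coding region the closest pair was AHL27 and AHL29, with 71.2% identical bases, followed by AHL18 and AHL22 with 64.6%. The deposited tables gave these 10 genes no reads that map to several places, so the likeness between the copies did not lead to shared reads in the counts.

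The 10 genes lie on 4 chromosomes. AHL27 (AT1G20900, 7272526 to 7274072) and AHL29 (AT1G76500, 28704963 to 28706691) are on chromosome 1. AHL21 (AT2G35270, 14856664 to 14858134), AHL16 (AT2G42940, 17862254 to 17863456) and AHL22 (AT2G45430, 18727504 to 18729272) are on chromosome 2. AHL19 (AT3G04570, 1230746 to 1232451), AHL15 (AT3G55560, 20604616 to 20606650) and AHL18 (AT3G60870, 22492811 to 22494253) are on chromosome 3. AHL20 (AT4G14465, 8320538 to 8322352) and AHL25 (AT4G35390, 16829326 to 16830692) are on chromosome 4. The submitters' processing notes name TAIR10, and the coordinates here are those of the TAIR10.1 reference. AHL16 is wholly overlapped, over 1203 bases, by AT2G42920 on the opposite strand, and since the strand setting of the counting is not given in the sources used here, its few reads cannot be assigned with certainty. The other 9 genes overlap no annotated gene.

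Levels between genes were compared as deposited RPKM, a count of reads divided by the length of the gene and by the total of the library. The deposited lengths of AHL18 and AHL21, 0.798 and 0.858 kb, equal their coding regions of 798 and 858 bases. Those of the other members are longer than their coding regions, so the lengths are not of 1 kind. Over the 18 libraries AHL19 averaged 19.0 RPKM (range 10.8 to 26.0) and AHL15 14.6 RPKM (10.9 to 19.6). AHL22 averaged 11.7 RPKM, AHL20 11.6 RPKM and AHL27 8.31 RPKM. AHL21 averaged 5.51 RPKM, AHL29 4.13 RPKM and AHL25 2.38 RPKM. AHL18, at 0.479 RPKM, rested on 4 to 60 reads a library. The defence-related AHL19 thus stood at the top of this order and the root regulator AHL18 near its foot. AHL16, the anther gene, had 21 reads in all 18 libraries together and never more than 4 in a library. AHL16 had 0 reads in 10 libraries, where a floor of 3 reads applies, and that floor ran from 0.0408 to 0.0548 CPM over the 18 libraries (read counts scaled to the library total and to TMM, a factor that centres the bulk of genes between libraries).

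Neighbours in this order were not all distinct. AHL22 exceeded AHL20 in 10 of 18 libraries, and their values were apart in that direction in 1 of the 6 groups. AHL19 exceeded AHL15 in 12 of 18 libraries, which include all 9 stress libraries. At control the group means were in the reverse order in all 3 genotypes. AHL15 and AHL19 averaged 17.3 and 14.1 RPKM in ahl10-1, 15.5 and 14.2 RPKM in rrp6l1-2, and 18.3 and 17.5 RPKM in WT. In ahl10-1 at control the libraries were apart, with AHL15 at 18.0, 17.0 and 16.8 RPKM and AHL19 at 13.5, 14.5 and 14.3 RPKM. AHL21 exceeded AHL29 in 15 of 18 libraries, with the values apart in 2 of the 6 groups. From AHL29 downward the order held in every library.

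**Figure D1:**
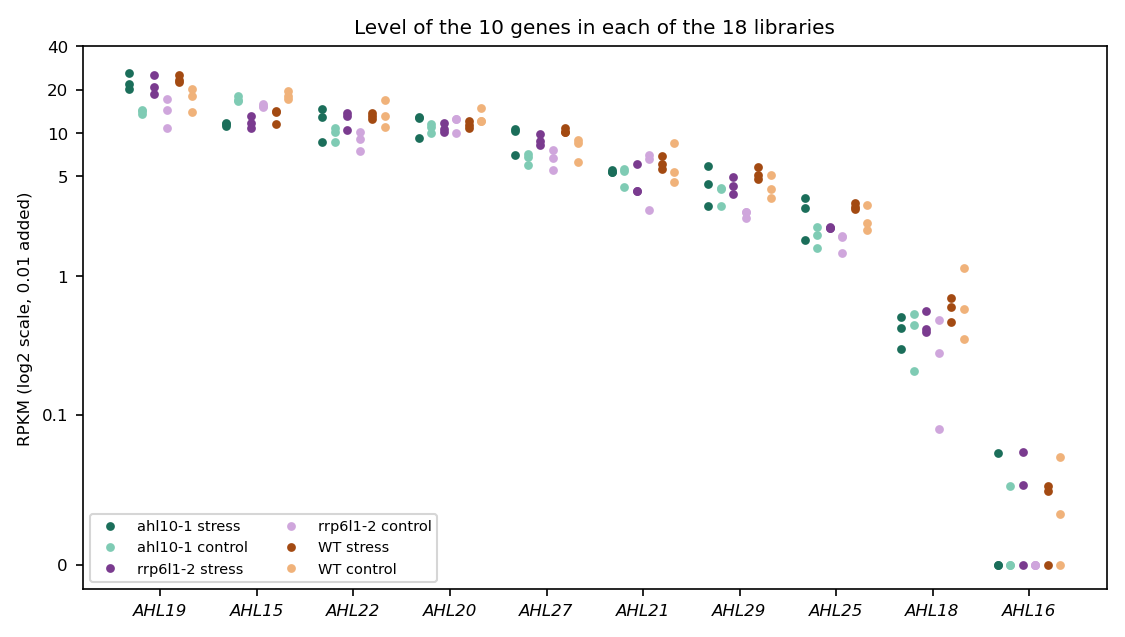
Deposited RPKM of the 10 genes in each of the 18 libraries, on a log2 axis after adding 0.01, with genes ordered by mean and each point 1 library coloured by group. AHL19 and AHL15 lie at the top with means of 19.0 and 14.6 RPKM, AHL18 lies near 0.479 RPKM, and AHL16 is at 0 in 10 libraries.

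Before the comparisons, the targeted genes were checked. AHL10 averaged 22.8 ± 2.34 CPM in ahl10-1 and 45.9 ± 0.706 CPM in WT at control (mean ± SD, n = 3), so reads of AHL10 were still present in the mutant. RRP6L1 averaged 7.23 ± 1.68 CPM in rrp6l1-2 and 26.9 ± 1.45 CPM in WT at control. Both mutants were therefore lower in their own gene, as labelled. Green-tissue markers (RBCS1A, LHCB1.1 and LHCB2.1) and all 6 root markers had reads in every library, with summed levels of 9390 to 17900 CPM and 2830 to 4220 CPM, as for whole seedlings. The 4 flower markers summed to 1.53 to 3.34 CPM and the 2 embryo markers to 0 to 0.856 CPM. Among these, AG was called lower and FUS3 higher at stress in all 3 genotypes, at group means under 1 CPM, and the flower gene PI was called higher in WT, at 2.68 CPM at stress and 1.63 CPM at control. The shoot meristem genes STM, WUS and CLV3 summed to 1.48 to 15.5 CPM, nearly all of it STM, and WUS and CLV3 were too low to test.

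Low water potential lowered AHL15, the gene linked to delayed ageing, in all 3 genotypes. AHL15 had 18.1, 19.4 and 20.5 CPM in stressed ahl10-1, against 30.1, 29.7 and 31.8 CPM in ahl10-1 at control. In rrp6l1-2 it had 19.4, 18.4 and 22.4 CPM at stress and 28.6, 26.1 and 29.2 CPM at control. WT gave 22.4, 18.8 and 23.4 CPM at stress and 30.2, 33.6 and 29.4 CPM at control. Every stressed library lay below every control library, across genotypes as well as within them. A gene was called where edgeR's quasi-likelihood test gave an adjusted p under 0.05 over all genes tested. Stress lowered AHL15 by 0.66 ± 0.0906 (SE) on the log2 scale in ahl10-1 (edgeR adjusted p = 5.48e-05), a fold of 0.634. AHL15 fell by 0.48 ± 0.0905 in rrp6l1-2 (edgeR adjusted p = 0.00107) and by 0.53 ± 0.0902 in WT (edgeR adjusted p = 0.000427). These calls held in all 16 other settings tried for each genotype. In libraries of whole seedlings, fewer cells that express a gene and less RNA per cell cannot be told apart, here and in all that follows.

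AHL19, the highest of the set in mean RPKM over the 18 libraries though not at control alone, moved the other way. It had 35.5, 31.1 and 30.1 CPM in stressed ahl10-1, against 19.0, 21.4 and 22.8 CPM in ahl10-1 at control. In rrp6l1-2 it had 26.0, 30.1 and 36.7 CPM at stress and 16.5, 25.2 and 23.2 CPM at control. WT gave 34.4, 31.0 and 32.5 CPM at stress and 26.4, 20.2 and 28.2 CPM at control. Within each genotype the stressed and control libraries did not overlap. The log2 fold change was 0.62 ± 0.156 in ahl10-1 (edgeR adjusted p = 0.00739) and 0.52 ± 0.156 in rrp6l1-2 (edgeR adjusted p = 0.0213), and AHL19 was called higher in both. In WT it was 0.39 ± 0.155, with a 95% interval of 0.06 to 0.72, and missed the threshold (edgeR adjusted p = 0.078). The authors' deposited table for WT gives AHL19 a log2 fold change of 0.37 with an adjusted p of 0.015, and AHL15 one of -0.52 with an adjusted p of 4.22e-05, and in that table these were the only members of the 10 under 0.05. In rrp6l1-2 the AHL19 call was lost without control replicate 1 (0.35, adjusted p = 0.0916) or stress replicate 3 (0.36, adjusted p = 0.133), and in an edgeR fit of these 6 libraries alone (0.51, adjusted p = 0.092).

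The hypocotyl regulators AHL27 and AHL29 had estimates above 0 at stress in all 3 genotypes. AHL27 was called in ahl10-1 only and AHL29 in rrp6l1-2 only. AHL27 had 16.5, 16.3 and 11.9 CPM in stressed ahl10-1, against 10.8, 11.9 and 10.8 CPM in ahl10-1 at control. Stressed replicate 3 was within rounding of the highest control library. The log2 fold change was 0.41 ± 0.139 in ahl10-1 (edgeR adjusted p = 0.0344). This call was lost without any of the other 5 libraries of that genotype (0.32 to 0.45, edgeR adjusted p = 0.0513 to 0.149), in an edgeR fit of the 6 libraries alone (0.41, adjusted p = 0.0643) and with limma on unfiltered RPKM (0.44, adjusted p = 0.0545). In rrp6l1-2 AHL27 had 13.1, 14.2 and 16.0 CPM at stress and 9.49, 12.6 and 12.2 CPM at control. In WT it had 15.6, 16.7 and 15.9 CPM at stress and 14.0, 10.3 and 14.0 CPM at control. Neither pair of groups overlapped, with log2 fold changes of 0.34 ± 0.14 in rrp6l1-2 (edgeR adjusted p = 0.0797) and 0.33 ± 0.139 in WT (edgeR adjusted p = 0.0916).

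AHL29 had 4.04, 5.45 and 4.72 CPM in stressed rrp6l1-2, against 3.03, 3.17 and 3.46 CPM in rrp6l1-2 at control. The stressed libraries all lay above the control libraries, and the log2 fold change of 0.56 ± 0.18 was called (edgeR adjusted p = 0.0297). Without control replicate 1 or 2, or stress replicate 2 or 3, the call was lost (0.44 to 0.54, edgeR adjusted p = 0.0779 to 0.12). In ahl10-1 AHL29 had 6.22, 4.79 and 3.62 CPM at stress and 4.53, 4.66 and 3.82 CPM at control, with stress replicate 3 below all control libraries. In WT it had 5.29, 6.09 and 5.16 CPM at stress and 4.62, 3.93 and 5.48 CPM at control. The groups overlapped in both of these genotypes, with log2 fold changes of 0.17 ± 0.178 in ahl10-1 (edgeR adjusted p = 0.511) and 0.24 ± 0.177 in WT (edgeR adjusted p = 0.352).

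The flowering and gibberellin genes AHL22 and AHL25 did not pass the test at stress in any genotype. AHL22 had 20.5, 18.7 and 13.4 CPM in stressed ahl10-1 and 15.8, 15.5 and 14.2 CPM in ahl10-1 at control. In rrp6l1-2 it had 15.0, 19.4 and 20.3 CPM at stress and 11.8, 15.3 and 14.8 CPM at control, while WT gave 19.2, 18.5 and 17.9 CPM at stress and 19.8, 16.2 and 24.1 CPM at control. The groups overlapped in all 3 genotypes, although in rrp6l1-2 the overlap was between 15.0 and 15.3 CPM only. AHL22 had a log2 fold change of 0.39 ± 0.162 in rrp6l1-2 (edgeR adjusted p = 0.0845), which passed the threshold without stress replicate 1 (0.49, adjusted p = 0.0499), 0.21 ± 0.162 in ahl10-1 (adjusted p = 0.362) and -0.12 ± 0.161 in WT (adjusted p = 0.64).

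AHL25 had 4.91, 4.35 and 2.76 CPM in stressed ahl10-1 and 3.18, 2.95 and 2.56 CPM in ahl10-1 at control. It had 3.17, 3.19 and 3.16 CPM at stress and 2.93, 2.87 and 2.39 CPM at control in rrp6l1-2, and 4.45, 4.26 and 4.21 CPM at stress and 3.53, 3.09 and 4.44 CPM at control in WT. In ahl10-1 stress replicate 3 was again the low library, and the log2 fold change of AHL25 was 0.68 without it (edgeR adjusted p = 0.00491) and 0.47 ± 0.183 with it (edgeR adjusted p = 0.0641). The log2 fold change was 0.22 ± 0.184 in rrp6l1-2 (edgeR adjusted p = 0.397) and 0.22 ± 0.181 in WT (edgeR adjusted p = 0.397).

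The other 3 tested genes did not pass the test either. AHL20, a regulator of defence and flowering, ranged from 16.3 to 21 CPM in the 9 stressed libraries and from 17.9 to 24.4 CPM in the 9 control libraries. In WT the groups did not overlap, with 19.1, 17.3 and 18.5 CPM at stress and 20.9, 20.6 and 24.4 CPM at control, and the log2 fold change was -0.26 ± 0.109 (edgeR adjusted p = 0.0893). It was -0.21 ± 0.109 in rrp6l1-2 (edgeR adjusted p = 0.159) and 0.02 ± 0.109 in ahl10-1 (edgeR adjusted p = 0.885). AHL21 ranged from 3.55 to 6.15 CPM at stress and from 2.86 to 7.55 CPM at control, so the controls enclosed the stressed libraries. In rrp6l1-2 AHL21 had a log2 fold change of -0.35 ± 0.278 (edgeR adjusted p = 0.367), which reached -0.65 (adjusted p = 0.0475) without control replicate 1. AHL18 ranged from 0.275 to 0.575 CPM at stress and from 0.0706 to 0.941 CPM at control, and its intervals were wide at this depth, from -0.48 to 1.67 around a log2 fold change of 0.60 in rrp6l1-2 (edgeR adjusted p = 0.401).

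**Figure D2:**
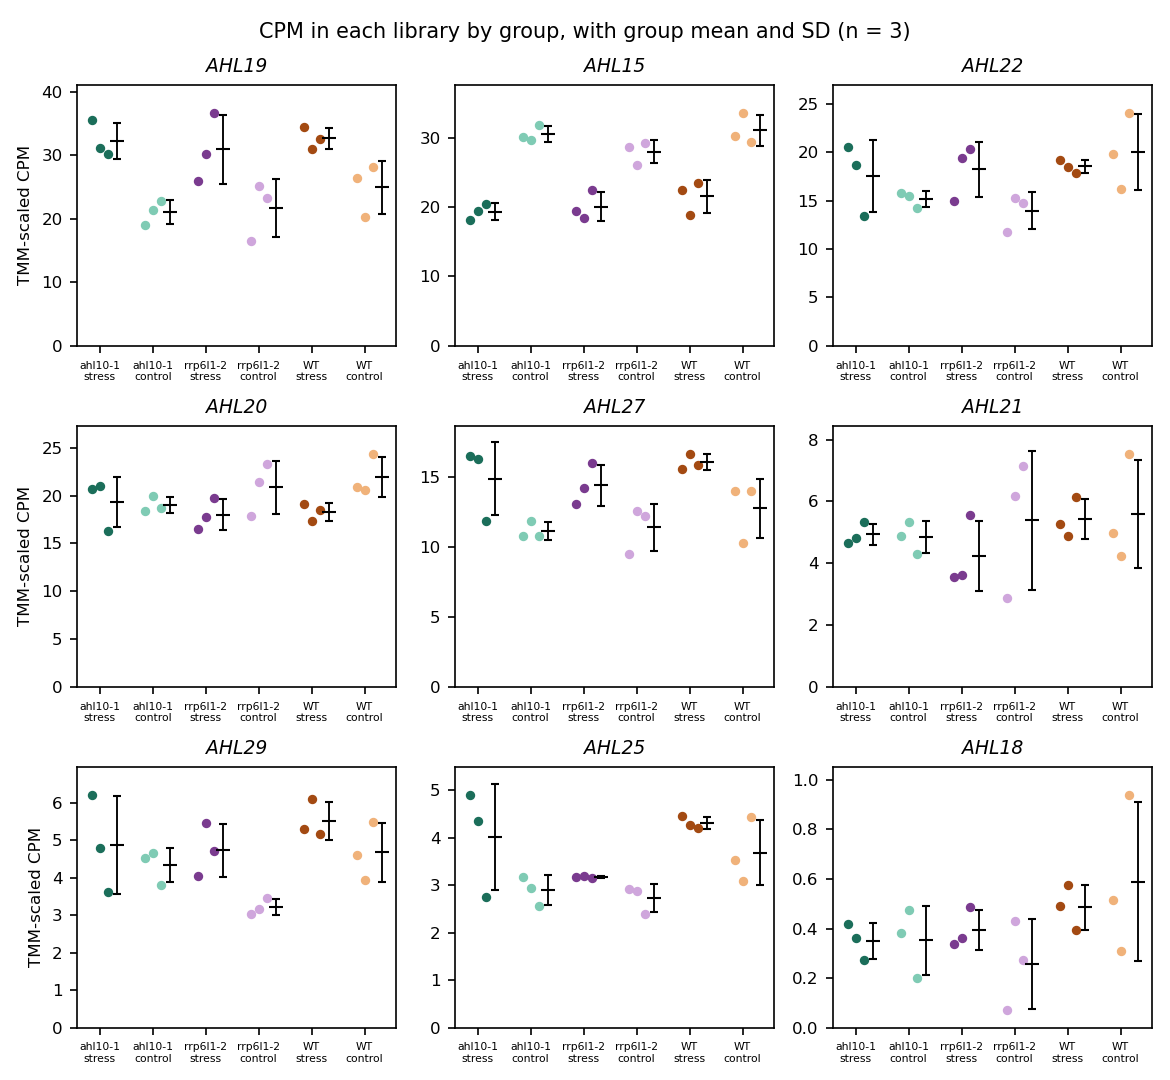
TMM-scaled CPM of the 9 tested genes in each library (points), with the mean and SD of each group of 3 (bar), and axes that start at 0. AHL15 is lower in all stressed groups than in all control groups, at 18.1 to 23.4 CPM against 26.1 to 33.6 CPM, and stress replicate 3 of ahl10-1 is the lowest stressed ahl10-1 library for AHL22, AHL27, AHL29 and AHL25.

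Counted over the set, 3 of the 9 tested genes were called at stress in ahl10-1 (AHL15 lower, AHL19 and AHL27 higher), where 30.1% of all 22795 genes tested were called. In rrp6l1-2 3 of 9 were called (AHL15 lower, AHL19 and AHL29 higher) against 29.5% of all genes, and in WT 1 of 9 (AHL15 lower) against 26.1% of all genes. The share called was thus near the background or below it. The stressed and control libraries did not overlap for 3 of 9 in ahl10-1, 5 of 9 in rrp6l1-2 and 4 of 9 in WT, against 40.1%, 44.7% and 43.2% of all genes. The unadjusted p was under 0.05 for 4 of 9 in ahl10-1, 5 of 9 in rrp6l1-2 and 4 of 9 in WT, against 40.6%, 41% and 37.6% of all genes. The median log2 fold change of the 9 was 0.17, 0.34 and -0.04 in ahl10-1, rrp6l1-2 and WT, beside 0.006, 0.02 and -0.003 over all genes tested. When CPM was scaled by library totals without TMM, the median of all genes moved to 0.13 in rrp6l1-2, to 0.08 in ahl10-1 and to 0.07 in WT. Calls of all genes then split into 4944 higher and 2291 lower in rrp6l1-2, where TMM gave 3388 and 3345. They split into 4113 and 2412 in ahl10-1, where TMM gave 3576 and 3285, and into 3389 and 2227 in WT, where TMM gave 2879 and 3062. Fold changes of the members under that scaling are therefore to be read relative to these shifts.

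**Figure D3:**
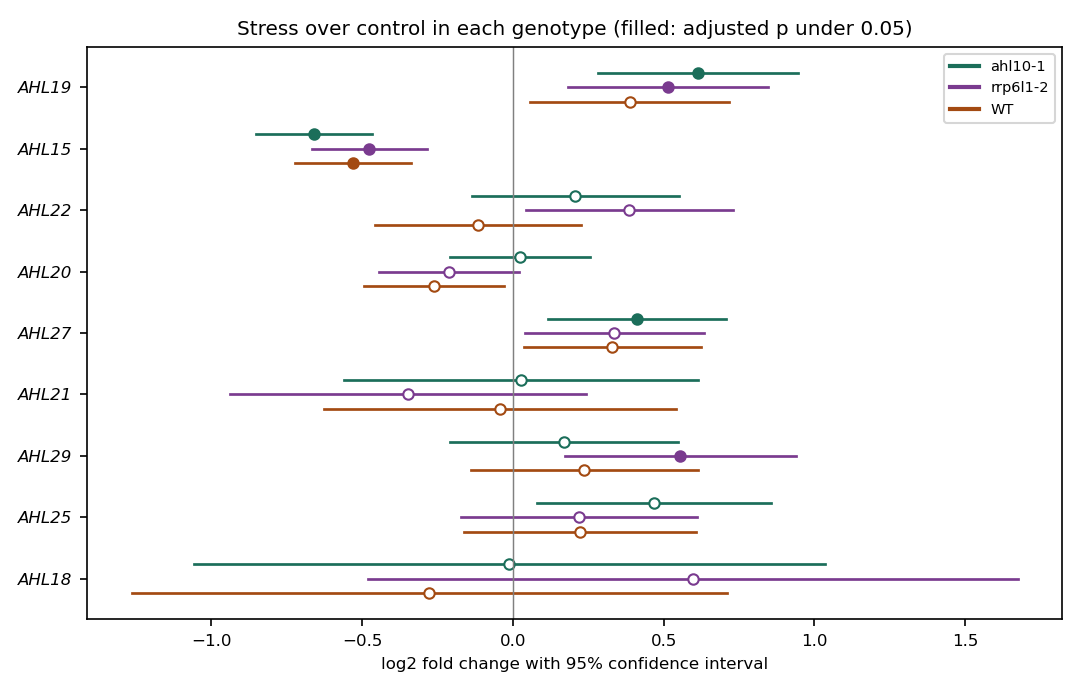
Log2 fold change of stress over control in each genotype for the 9 tested genes, with 95% confidence intervals from the edgeR fit and filled points where the adjusted p was under 0.05. AHL15 is called lower in all 3 genotypes (-0.66, -0.48 and -0.53 in ahl10-1, rrp6l1-2 and WT), and AHL19 is called higher in ahl10-1 and rrp6l1-2 with an interval of 0.06 to 0.72 in WT.

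A stretch of 250 bases before the annotated start was examined for AHL15 and AHL19, which moved most clearly and in opposite directions. Both are given 5′ to 3′ on the gene's own strand, with capitals at each TATAAA or its reverse complement TTTATA. The promoter of AHL15 spans chr3:20606651-20606900 on the minus strand and that of AHL19 chr3:1230496-1230745 on the plus strand of TAIR10.1.
AHL15: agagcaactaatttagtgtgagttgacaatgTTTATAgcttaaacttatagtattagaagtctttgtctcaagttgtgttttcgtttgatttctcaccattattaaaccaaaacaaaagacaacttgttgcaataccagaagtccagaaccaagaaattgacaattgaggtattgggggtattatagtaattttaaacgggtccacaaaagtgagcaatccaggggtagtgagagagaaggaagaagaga
AHL19: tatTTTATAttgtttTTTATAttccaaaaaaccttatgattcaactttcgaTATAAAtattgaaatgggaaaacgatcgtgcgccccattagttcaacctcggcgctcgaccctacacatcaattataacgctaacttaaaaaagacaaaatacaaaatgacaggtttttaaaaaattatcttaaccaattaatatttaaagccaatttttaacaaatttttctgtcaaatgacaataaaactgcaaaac

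TATAAA occurred on either strand in 6 of the 10 windows (AHL15, AHL16, AHL19, AHL20, AHL25 and AHL29), against 47.3% of 27443 windows of the same length before protein-coding nuclear genes. AHL19 had 3 matches, all in the part of the window farthest from the start. ACGTG, the core of the abscisic acid response element, was in 0 of the 10 windows on either strand, against 22.9% of all windows. Its longer form CACGTG, the G-box, is contained in that search and was likewise in 0 of 10, against 6.49% of all windows. GGACCA, a core that TCP factors bind, was in 1 of 10 (AHL16), against 5.9% of all. The windows of AHL15 and AHL19 were 64.8% and 72% A or T, beside a median of 68.8% over all windows. These counts describe letters in 250 bases and show nothing about binding.

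Between each mutant and WT, none of the 9 tested genes was called at either water potential. At control, where 0.0263% of all genes were called in ahl10-1 and 0.211% in rrp6l1-2, edgeR called 0 of 9 in both mutants, as did DESeq2 and limma. At an unadjusted p under 0.05 there was 1 of 9 in ahl10-1 (5.94% of all genes) and 4 of 9 in rrp6l1-2 (17.6% of all genes). At stress edgeR, DESeq2 and limma again called 0 of 9 in both mutants, against 0.0351% of all genes in ahl10-1 and 0.0834% in rrp6l1-2. The unadjusted p was under 0.05 there for 0 of 9 in ahl10-1 (4.35% of all genes) and for 1 of 9 in rrp6l1-2 (3.77% of all genes).

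The estimates at control nevertheless lay below 0 for all 9 genes in both mutants, under TMM, DESeq2 size factors and plain library sizes alike, although the last moved the median of all genes to -0.115 in rrp6l1-2. In ahl10-1 they ran from -0.73 to -0.03 with a median of -0.21 on the log2 scale, and in rrp6l1-2 from -1.18 to -0.05 with a median of -0.21, beside medians of -0.007 and -0.02 over all genes tested. Both comparisons use the same 3 WT libraries. With WT control replicate 3 left out, 7 of 9 estimates were below 0 in each mutant, and in ahl10-1 AHL21 was at 0.07 and AHL29 at 0.02. In that library 8 of the 9 genes lay above the mean of their group. Without rrp6l1-2 control replicate 1, 7 of 9 estimates were below 0 in rrp6l1-2, and without WT control replicate 2, 8 of 9 in ahl10-1. Of all 22795 genes tested, 11983 were below 0 in ahl10-1 and 12375 in rrp6l1-2 at control. Estimates of organ markers were mixed at control, and none was called. All 3 green-tissue markers lay above 0 in rrp6l1-2 (0.007 to 0.434), and 1 of 3 in ahl10-1. Of the 4 flower markers, 3 lay above 0 in ahl10-1 and 0 in rrp6l1-2. The 1 embryo marker tested lay above 0 in both mutants. Others had estimates below 0. STM averaged 6.51 CPM in ahl10-1, 2.1 CPM in rrp6l1-2 and 7.75 CPM in WT, with a log2 fold change of -1.88 ± 0.61 in rrp6l1-2 (edgeR adjusted p = 0.156) and -0.24 ± 0.576 in ahl10-1 (edgeR adjusted p = 0.958). Of the 6 root markers, 4 had estimates below 0 in rrp6l1-2, with a median of -0.20, and 3 of them (PLT1, PLT2 and SHR) had an unadjusted p under 0.05. In ahl10-1 5 of 6 were below 0, with a median of -0.19, and PLT1 alone had an unadjusted p under 0.05. The largest of these, PLT1, averaged 2.98 CPM in ahl10-1, 2.16 CPM in rrp6l1-2 and 4.89 CPM in WT. The part of these tissues in the values of the members was not tested.

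The lowest p-values among the members belonged to AHL22 and AHL29 in rrp6l1-2 at control. AHL22 had 11.8, 15.3 and 14.8 CPM in rrp6l1-2 and 19.8, 16.2 and 24.1 CPM in WT, a log2 fold change of -0.53 ± 0.162 (edgeR adjusted p = 0.142). AHL29 had 3.03, 3.17 and 3.46 CPM in rrp6l1-2 and 4.62, 3.93 and 5.48 CPM in WT, a log2 fold change of -0.54 ± 0.18 (edgeR adjusted p = 0.158). Neither pair of groups overlapped, and 22% of all genes tested were without overlap in this comparison. In the authors' deposited table for this comparison AHL22 has an adjusted p of 0.0663 and AHL29 of 0.08, so neither was called there. AHL25 and AHL15 were also without overlap in rrp6l1-2 at control, with log2 fold changes of -0.43 ± 0.184 (edgeR adjusted p = 0.239) and -0.15 ± 0.0899 (edgeR adjusted p = 0.394). In ahl10-1 the groups were apart for AHL22, at 15.8, 15.5 and 14.2 CPM in the mutant against 19.8, 16.2 and 24.1 CPM in WT (-0.40 ± 0.161, edgeR adjusted p = 0.793), and for AHL20 (-0.21 ± 0.109, edgeR adjusted p = 0.793), as for 7.73% of all genes.

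Between stressed mutant and stressed WT seedlings the estimates for AHL22 and AHL19 were near 0. AHL22 had a log2 fold change of -0.02 ± 0.161 in rrp6l1-2 and of -0.08 ± 0.161 in ahl10-1, and AHL19 of -0.08 ± 0.154 and -0.02 ± 0.154 (edgeR adjusted p from 0.998 to 1 for these 4). The 95% interval of AHL22 in rrp6l1-2 ran from -0.37 to 0.32. AHL25 differed from this in rrp6l1-2, at 3.17, 3.19 and 3.16 CPM against 4.45, 4.26 and 4.21 CPM in WT, with no overlap (14.4% of all genes) and a log2 fold change of -0.44 ± 0.182 (edgeR adjusted p = 1). In ahl10-1 the groups overlapped for all 9, where 11.9% of all genes were without overlap. Over the set, 8 of 9 estimates were below 0 in ahl10-1 and 9 of 9 in rrp6l1-2, with medians of -0.11 and -0.16 beside 0.01 and 0.004 over all genes. Of all 22795 genes tested, 10575 were below 0 in ahl10-1 and 11010 in rrp6l1-2. These counts of members leaned on single libraries. Without ahl10-1 stress replicate 3, 4 of 9 were below 0 in ahl10-1, and without rrp6l1-2 stress replicate 1, 6 of 9 in rrp6l1-2.

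**Figure D4:**
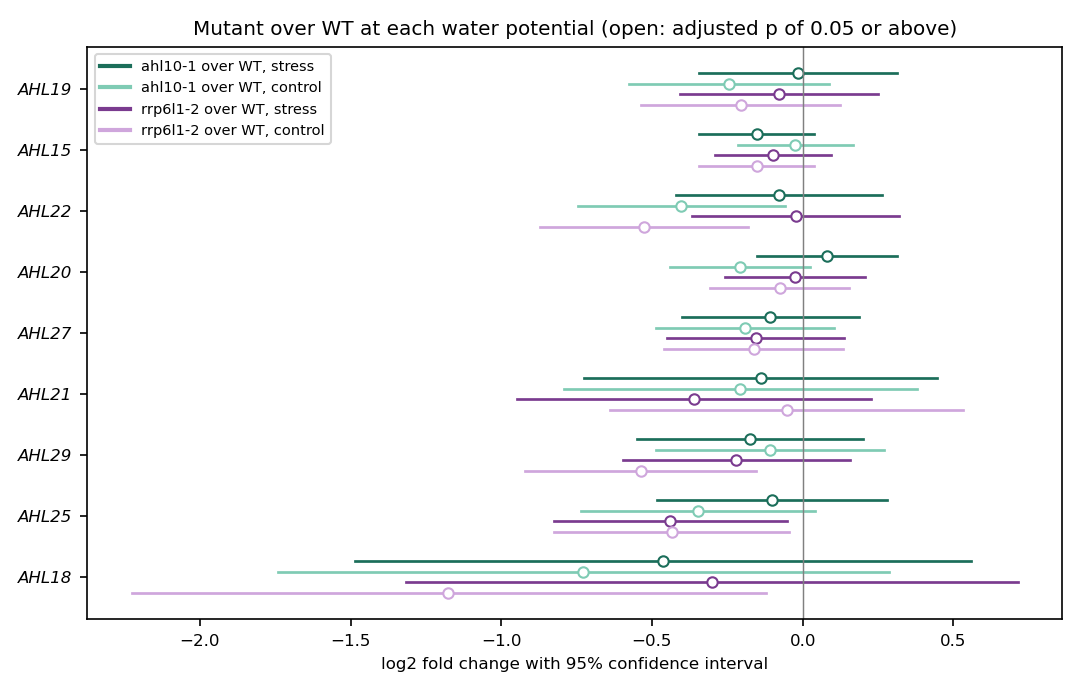
Log2 fold change of each mutant over WT at stress and at control for the 9 tested genes, with 95% confidence intervals from the edgeR fit and open points throughout, since no adjusted p was under 0.05. At control all 9 estimates lie below 0 in both mutants, with medians of -0.21, and intervals that leave out 0 belong to AHL22 in ahl10-1 and to AHL22, AHL25, AHL29 and AHL18 in rrp6l1-2.

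Whether the mutations altered the stress response was tested as an interaction. For either mutant edgeR called 0 of all 22795 genes (0% called), with 316 genes for ahl10-1 and 383 for rrp6l1-2 at an unadjusted p under 0.05, 1.39% and 1.68% of those tested. DESeq2 called 3 and 1 genes, none of them among the 9. The stress effect on AHL15 differed from that in WT by -0.13 in ahl10-1 (95% interval -0.40 to 0.14) and by 0.05 in rrp6l1-2 (-0.22 to 0.33). For AHL19 the difference was 0.23 (-0.24 to 0.69) and 0.13 (-0.34 to 0.59). AHL22 gave the only unadjusted p under 0.05 of the 9 members, a difference of 0.50 ± 0.228 in rrp6l1-2 (edgeR adjusted p = 1), and this estimate ran from 0.35 without WT control replicate 3 to 0.62 without WT control replicate 2. Genes called at stress in 1 genotype and not in another were thus not shown to respond differently.

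Within groups, many of the genes deviated together. After each gene's group mean was taken away, log2 CPM over the 18 libraries correlated at 0.89 between AHL22 and AHL27, 0.86 between AHL22 and AHL29 and 0.86 between AHL20 and AHL22. The closest coding pair, AHL27 and AHL29, stood at 0.72. Some pairs that hold AHL25 or AHL21 were the lowest of the 8 genes other than AHL15, with 0.01 between AHL21 and AHL25, 0.22 between AHL19 and AHL25, 0.25 between AHL21 and AHL29 and 0.39 between AHL18 and AHL25. Other such pairs were high, with AHL21 at 0.80 with AHL18, 0.77 with AHL19 and 0.70 with AHL20. AHL25 stood at 0.75 with AHL29 and 0.71 with AHL22. AHL15 had correlations of -0.60 to 0.11 with the other 8. These figures describe 18 libraries, in which all genes share the library and its scaling factor. The median deviation of the 9 genes was lowest in ahl10-1 stress replicate 3 (-0.30) and WT control replicate 2 (-0.29), and highest in WT control replicate 3 (0.24), while the median over all genes lay between -0.01 and 0.01 in every library.

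Root genes varied along with this. PYK10, an abundant root glucosidase, made up 97.9% to 98.8% of the summed root markers, so the other 5 (PLT1, PLT2, SHR, MYB36 and CASP1) were also summed without it, a choice made after the values were seen. That sum was 67.9 CPM in WT control replicate 3, 44.0 CPM in replicate 2 and 51.0 CPM in replicate 1. In rrp6l1-2 at control it was 41.9 CPM in replicate 1, the library in which 7 of the 9 genes lay below their group mean, and 48.7 and 54.8 CPM in the other two. Within groups the log2 sum correlated at 0.85 with AHL21, 0.79 with AHL20, 0.77 with AHL18 and AHL22, 0.74 with AHL19, 0.73 with AHL27, 0.56 with AHL29, 0.37 with AHL25 and -0.06 with AHL15. With group means left in, over the 18 libraries, the sum correlated at 0.85 with AHL19 and AHL27, 0.73 with AHL22 and AHL29 and 0.70 with AHL18. On that measure it stood at 0.60 with AHL25, 0.53 with AHL21, 0.13 with AHL20 and -0.55 with AHL15. Over the groups it ran from 56.6 to 61.0 CPM in stressed ahl10-1 against 47.5 to 56.2 CPM at control, from 53.8 to 70.7 CPM in stressed rrp6l1-2 against 41.9 to 54.8 CPM at control, and from 62.7 to 64.3 CPM in stressed WT against 44.0 to 67.9 CPM at control. Of the 6 root markers, MYB36 was called higher at stress in all 3 genotypes and none was called lower. PYK10 itself averaged 3360 CPM at stress and 3280 CPM at control in ahl10-1, 3110 and 3820 CPM in rrp6l1-2 and 2990 and 3540 CPM in WT, with log2 fold changes of 0.03, -0.30 and -0.24 (edgeR adjusted p = 0.869, 0.0886 and 0.18), so it did not share the direction of the sum of 5 in rrp6l1-2 and WT. PLT1, within that sum, was at 4.20 CPM at stress and 4.89 CPM at control in WT. The summed green-tissue markers were correlated over the 18 libraries at -0.87 with AHL25, -0.70 with AHL29, -0.68 with AHL27, -0.62 with AHL22, -0.58 with AHL19, -0.57 with AHL18, -0.11 with AHL21, 0.08 with AHL20 and 0.54 with AHL15, and none of the 3 was called at stress in any genotype. The part of root or leaf content in the values of the members was not tested.

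**Figure D5:**
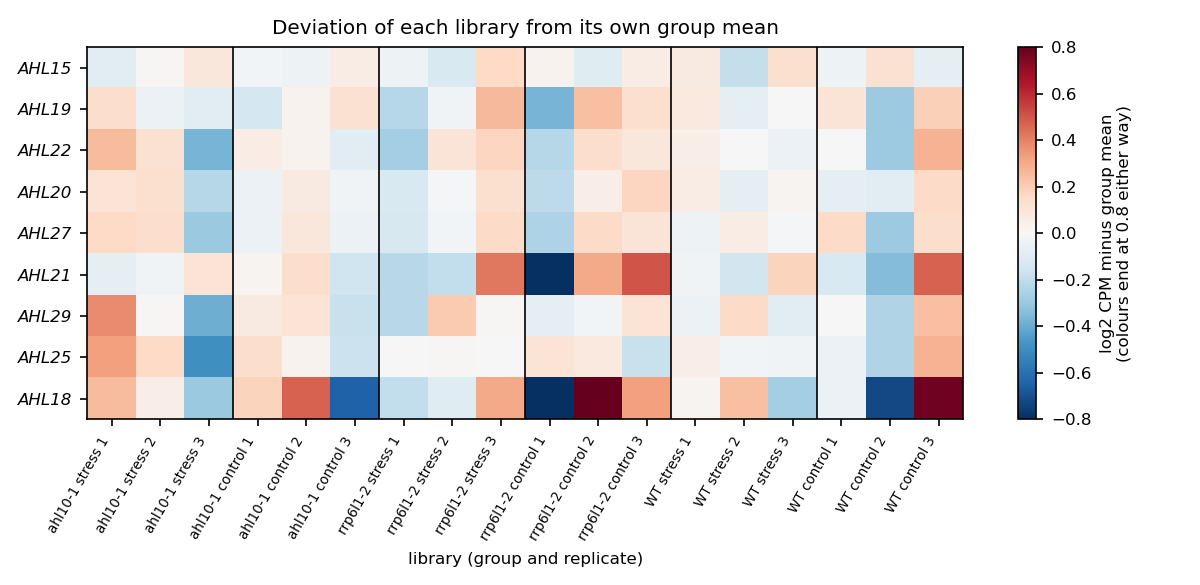
Difference of log2 CPM from the mean of its own group for each of the 9 tested genes (rows) in each library (columns), in red where higher and blue where lower, with colours ending at 0.8. Columns such as WT control replicate 3 (median 0.24) and ahl10-1 stress replicate 3 (median -0.30) are of 1 colour for most genes, while AHL15 in the top row often differs.

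The genes most like each member over the 18 libraries were looked up among the 18640 tested genes whose log2 CPM averaged 1 or more, as a description of these libraries. AHL19 was closest to MYB36, a regulator of root endodermis (r = 0.96), then to AT5G25770 and UGT73B4 (both 0.94). AHL22 was closest to AHL26 (AT4G12050), another clade A member (0.93), and AHL15 to AT5G66770 (0.96), AT1G27020 and the abscisic acid receptor gene PYL4 (both 0.95). AHL20 was closest to WNK8 and AT5G41992 (both 0.95), and AHL27 to AT5G58730, a gene named Mik (0.95). AHL25 had BBM, an embryo and root meristem factor, among its 3 closest (0.89), and AHL18 had LBD13 (0.84). AHL21 had no gene above 0.82, that of AO1, and AHL29 none above 0.90, that of AT1G31950. Since stress separates these libraries, genes that respond alike to stress also correlate here.

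The remaining clade A genes AHL17, AHL23, AHL24, AHL26 and AHL28 were mostly without calls. AHL24 was called higher at stress in rrp6l1-2, at 12.3 CPM on average against 7.96 CPM at control (0.63 ± 0.222, edgeR adjusted p = 0.0447), and the other 14 comparisons of stress with control in these 5 genes missed the threshold. Of all genes tested, 26.1% to 30.1% were called at stress against control. Against WT 0 of 5 were called by edgeR in either mutant at either water potential, where 0.0263% to 0.211% of all genes were called. At an unadjusted p under 0.05 there were 3 of 5 in rrp6l1-2 at control, against 17.6% of all genes. The other 3 comparisons had 0 of 5, against 3.77% to 5.94% of all genes. At control the estimates of these genes lay below 0 in 5 of 5 in both mutants, with medians of -0.30 in ahl10-1 and -0.48 in rrp6l1-2. The 14 clade B genes, to which AHL10 belongs, had 4 calls at stress in ahl10-1, 5 in rrp6l1-2 and 4 in WT. Over all genes tested, 30.1%, 29.5% and 26.1% were called in these 3 comparisons, so the share was near the background. AHL10 and AHL7 rose and AHL9 fell in all 3 genotypes, for instance AHL7 to 10.7 CPM at stress, against 7.66 CPM at control, in WT (0.47 ± 0.135, edgeR adjusted p = 0.0162). Against WT at control, 10 of the 14 clade B estimates lay below 0 in ahl10-1, AHL10 included, and 12 of 14 in rrp6l1-2. Their medians were -0.053 and -0.187. At an unadjusted p under 0.05 there were 2 and 7 of 14, against 5.94% and 17.6% of all genes.

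Genes reported to act with or under clade A proteins were examined from lists drawn from general knowledge. Of 13 reported targets, 1 was higher and 1 lower at stress in ahl10-1, 1 higher and 2 lower in rrp6l1-2, and 1 higher and 2 lower in WT. Over all genes tested, 30.1%, 29.5% and 26.1% were called in these genotypes, so the targets were near the background or below it. FT, the flowering signal that AHL22 represses, averaged 1.59 CPM at stress against 4.16 CPM at control in ahl10-1 (-1.39 ± 0.237, edgeR adjusted p = 0.000382), 1.90 against 4.20 CPM in rrp6l1-2 (-1.15 ± 0.235, edgeR adjusted p = 0.00185) and 1.40 against 4.19 CPM in WT (-1.58 ± 0.239, edgeR adjusted p = 0.00015). ARF3, the auxin response factor gene that AHL21 represses, was called higher in all 3 genotypes, from 0.24 ± 0.0862 in ahl10-1 (edgeR adjusted p = 0.047) to 0.39 ± 0.0863 in WT (edgeR adjusted p = 0.00344). YUC9, an auxin synthesis gene, was called lower in rrp6l1-2 and WT. The median log2 fold change of the 13 was -0.31 in ahl10-1, -0.25 in rrp6l1-2 and -0.16 in WT.

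Among 8 partner genes, HDA19, a histone deacetylase gene, was called higher in all 3 genotypes, from 0.22 ± 0.0659 in WT to 0.29 ± 0.0659 in rrp6l1-2 (edgeR adjusted p = 0.021 and 0.00418). TCP13, a transcription factor of leaf growth, was called lower in ahl10-1 (-0.58 ± 0.168, edgeR adjusted p = 0.0159) and rrp6l1-2 (-0.64 ± 0.168, edgeR adjusted p = 0.00974). Of the 4 PIF genes PIF7 was called lower in all 3 genotypes, from -0.50 ± 0.157 in ahl10-1 to -0.63 ± 0.157 in rrp6l1-2 (edgeR adjusted p = 0.0248 and 0.00708). Among 3 upstream regulators, FUL, which represses AHL15 in the inflorescence, was called higher at stress in ahl10-1 (0.92 ± 0.306, edgeR adjusted p = 0.0318) and rrp6l1-2 (1.09 ± 0.312, edgeR adjusted p = 0.0154), and BBM, which activates AHL15 in embryos, in rrp6l1-2 (0.79 ± 0.269, edgeR adjusted p = 0.0367). At stress 2 partner genes were called higher and 1 lower in ahl10-1, 1 higher and 1 lower in rrp6l1-2, and 2 higher in WT. Of all genes tested, 30.1%, 29.5% and 26.1% were called in these genotypes. The lists of targets, partners, PIF genes and upstream regulators gave 0 calls by edgeR in either mutant against WT at either water potential. Of all genes tested, only 0.0263% to 0.211% were called in these comparisons. At most 1 gene of each list had an unadjusted p under 0.05 in any of these 4 comparisons, against 3.77% to 17.6% of all genes.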

How the data were processed

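Whole seedlings of ahl10-1, rrp6l1-2 and WT were sequenced with 3 libraries per genotype and water potential. Per the labels, poly(A) RNA was made into stranded libraries. Per the file headers, the authors deposited per library an expected count of reads for each locus, an RPKM value, the fraction of multi-mapped reads, and other columns such as the gene length. The authors deposited 5 tables of their comparisons, with a log2 fold change, a test score and a p-value. Tools named in the submitters' processing notes were Bowtie2, DESeq2, bcl2fastq 1.8.4 and CASAVA, with TAIR10 as the build. Which tool counted reads, and whether by strand, is not given in the sources used here. Gene models and sequences came from NCBI's TAIR10.1, read with Biopython 1.88.

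Expected counts, which are not whole for 3.92% to 4.56% of loci per library but whole for the 10 members, were rounded. The quasi-likelihood test of edgeR 4.0.16 (glmQLFit, robust, then glmQLFTest, R 4.3.3) was applied to all 18 libraries in 1 fit of 6 group means and TMM factors of 0.901 to 1.072. filterByExpr kept 22795 genes. Benjamini-Hochberg adjustment ran over all genes tested, and genes were called at an adjusted p under 0.05. Member counts called, the members' fold changes in the 7 comparisons of groups and 5 members' interactions (AHL15, AHL19, AHL22, AHL27 and AHL29) were recomputed under alternatives, among them DESeq2 1.42.0 and limma 3.58.1 on log2(RPKM + 0.5). The edgeR steps were tested on simulated data. No pair of replicates was identical. Correlations used log2 CPM with a prior count of 2. Floors of 3 reads and intervals cover counting or replicate error only.

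The groups share replicate numbers, and the labels do not say what a number shares. Deviations from group means correlated above 0.1 for all 3 numbers in stress against control in ahl10-1 (0.239, 0.205 and 0.327) and in rrp6l1-2 (0.444, 0.123 and 0.16) and in rrp6l1-2 against WT at control (0.435, 0.312 and 0.198). The fit reported here did not use the numbers, so its p-values are unpaired. A fit with the replicate number as a block was run as an alternative. All 10 members were planned for every comparison, but AHL16 was not tested and values of the others are printed in part. From the other lists up to 3 called genes with the smallest adjusted p were named. The 3 genes most correlated with each tested member were looked up. Members and lists were chosen with earlier results of these data known.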

Additional observations from a re-analysis of the deposited data

How the results depend on the processing

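Counts of called members kept within 1.5 times under every alternative except at stress in WT, where 2 genes (AHL15 and AHL19) were called with plain library sizes, with the compared groups only, and in limma with 0.5 or 0.1 added to RPKM, and at stress in rrp6l1-2, where leaving out a library gave 1 to 4, the 1 without stress replicate 3. The cause was not tested. With the replicate block, 3 members were called at stress in ahl10-1, 3 in rrp6l1-2 and 1 in WT, and 0 against WT, so this block changed no call of a member. It gives each replicate number the same shift in all groups, although same-numbered libraries deviated together in only some comparisons. Pairing within those comparisons alone was not tested. Calls over all genes in rrp6l1-2 against WT at control numbered 148 with the block, 48 without it and 804 with DESeq2. Over all genes, DESeq2 called 21 against 6 in ahl10-1 and WT at control, 27 against 8 at stress, and 56 against 19 in rrp6l1-2 and WT at stress. AHL27 at stress in rrp6l1-2 passed with plain library sizes (adjusted p = 0.0396) and with limma (0.0449 and 0.0441).

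Among the fold changes between groups of all 9 members and the interactions of AHL15, AHL19, AHL22, AHL27 and AHL29, these estimates turned sign under settings that keep all libraries, and none of them was called in any setting. AHL21 at stress in WT became 0.021 with plain library sizes and 0.054, 0.06 and 0.054 with limma. AHL18 at stress in ahl10-1 became 0.052 with plain library sizes and 0.037, 0.088 and 0.037 with limma. The AHL27 interaction in rrp6l1-2 became -0.012 with DESeq2 size factors and with DESeq2, and -0.008 with no filter. For the interactions of AHL18, AHL20, AHL21 and AHL25 no values are given, and over all 9 members 1 to 4 estimates were negative in ahl10-1 and 1 to 6 in rrp6l1-2 over all settings, against 2 and 2 as reported.

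Leaving out 1 library at a time gave these ranges where the sign of the same estimates turned. At stress against control they were -0.582 to 0.229 for AHL18, -0.21 to 0.234 for AHL21 and -0.25 to 0.038 for AHL22 in WT, and -0.283 to 0.246 for AHL18, -0.042 to 0.132 for AHL20, -0.054 to 0.091 for AHL21 and -0.058 to 0.343 for AHL29 in ahl10-1. Against WT at control they were -0.062 to 0.035 for AHL15, -0.374 to 0.07 for AHL21 and -0.22 to 0.021 for AHL29 in ahl10-1, and -0.163 to 0.023 for AHL20 and -0.304 to 0.25 for AHL21 in rrp6l1-2. Against WT at stress they were -0.106 to 0.03 for AHL19, -0.224 to 0.081 for AHL22, -0.29 to 0.104 for AHL25 and -0.201 to 0.028 for AHL27 in ahl10-1, and -0.227 to 0.026 for AHL19, -0.102 to 0.027 for AHL20 and -0.116 to 0.091 for AHL22 in rrp6l1-2. For the interactions of those 5 genes they were -0.019 to 0.218 for AHL27 and -0.306 to 0.106 for AHL29 in ahl10-1, and -0.051 to 0.113 for AHL15, -0.034 to 0.247 for AHL19 and -0.109 to 0.128 for AHL27 in rrp6l1-2.

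Depth limits AHL18, with 4 to 60 reads a library, and AHL16, with 0 to 4.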
